A study of Homo sapiens with 12 samples.

Results

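Very long genes are genes whose transcribed region covers a great stretch of genome, nearly all of it intron, so that RNA polymerase II needs hours to copy them from end to end. They serve unrelated functions, among them receptor phosphatases, kinases, metabolic enzymes, chromatin proteins and trafficking factors. Some, such as FHIT and WWOX, lie on common fragile sites, regions that break when replication is slowed. A list of 44 such genes was examined, each with a genomic span of at least 400 kb in the RefSeq gene table (411.8 kb for RNLS to 2173.4 kb for DLG2, median 733.3 kb), spread over 17 chromosomes.

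The genes were followed in MDA-MB-231, an established human cell line from a breast cancer without hormone receptors. Cells were lipofected for 24 h with 30 nM of either an LNA gapmer, an antisense oligonucleotide with locked nucleic acid ends that directs RNase H to its target, here CYTOR (LINC00152), a long noncoding RNA, or a control LNA at the same dose. Total RNA of 6 samples per group was hybridised to single-colour Illumina bead arrays, 1 array per sample, and the labels place 1 CYTOR LNA array and 3 control arrays in batch 1 and 5 CYTOR LNA arrays and 3 control arrays in batch 2. All 12 samples are of a single cell line, and whether cultures were separate is not said in the labels, so the p-values reflect spread among these arrays that could be technical only. The comparison asks which of these transcripts differ after the CYTOR LNA, and whether a fall is general among them or limited to single genes. Lowered CYTOR and other effects of the CYTOR LNA cannot be told apart in this design. The LNA sequences were not in the sources used here, and their match to these genes was not examined.

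The platform annotation named 83 probes for 42 of the 44 genes; MAGI1 and MAGI2, scaffold proteins of cell junctions, had no named probe and were not analysed here. Values are deposited log2 signals, and the median of every array was 6.53, a level at which signal was not told apart from background. Genes were represented by their brightest probe, and 34 of the 42 passed the filter on dim probes (a mean over the 12 arrays of at least 6.52). None of these 34 passed through 1 group alone, since both group means of each lay above the filter. In controls, 22 of the 34 had a mean above 7, from PRKCE at 7.004 upwards, and 12 lay at or below 7, from NBEA at 6.93 downwards. The silencing itself was seen at the brightest CYTOR probe, at 7.83 ± 0.12 (SD, n = 6) in controls and 6.74 ± 0.10 (SD, n = 6) in silenced cells (log2 change -1.10, SE 0.058, limma adjusted p = 7.99e-13). Of 6 mesenchymal markers known from this line, 5 were above 7 in controls, with VIM at 13.3 and SPARC at 6.43, while ESR1 (6.47), PGR (6.58), PTPRC (6.46) and 5 of 5 fibroblast markers (6.38 to 6.61) lay near the array median. CD68, a lysosomal protein used as a macrophage marker, was at 10.8 in controls and 10.9 after the CYTOR LNA, and EPCAM and KRT19 were also above 7 (7.98 and 7.33). Among the markers above the filter on dim probes, CD44 alone passed the test, with a fall from 12.06 to 11.85. Markers under the filter, among them SPARC, ESR1, PTPRC and most fibroblast markers, were not tested.

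Falls were frequent among the very long genes and no member rose. Of the 34 genes tested, 14 fell (41.2%) and 0 rose (limma with batch as a term, Benjamini-Hochberg adjusted p below 0.05 over all probes tested), and none was higher at an unadjusted p under 0.05. Across all 12714 genes tested, 5.4% fell and 2.49% rose at the adjusted threshold. Their share that was higher at the unadjusted threshold was not counted. The list was chosen with earlier results of these data known, so its shares are descriptions and no independent test. Members with a control mean above 7 fell in 12 of 22 cases (54.5%), where 7.84% of all genes at that level fell and 3.28% rose. The limit of 7 was set on controls alone, and the fallen RNLS, FTO and ZNF407 had CYTOR LNA means below it (6.83, 6.92 and 6.95). Among the 12 dimmer members, FHIT and IMMP2L fell (16.7%), where 1.48% of all genes at that level fell and 1.21% rose. The fitted change was below 0 for 34 of 34 members, which was so for 47.9% of all genes tested, and its median was -0.12 over the members and 0.00 over all genes. The called falls ran from 1.14-fold to 2.20-fold with a median of 1.22-fold, and RNLS, PTPRG and SMYD3 reached 1.5-fold. These are 8.82% of the 34 members, where 0.527% of all genes tested fell by that much. The arrays measure RNA from whole cultures, so fewer cells expressing a gene and less RNA per cell cannot be told apart.

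**Figure D1:**
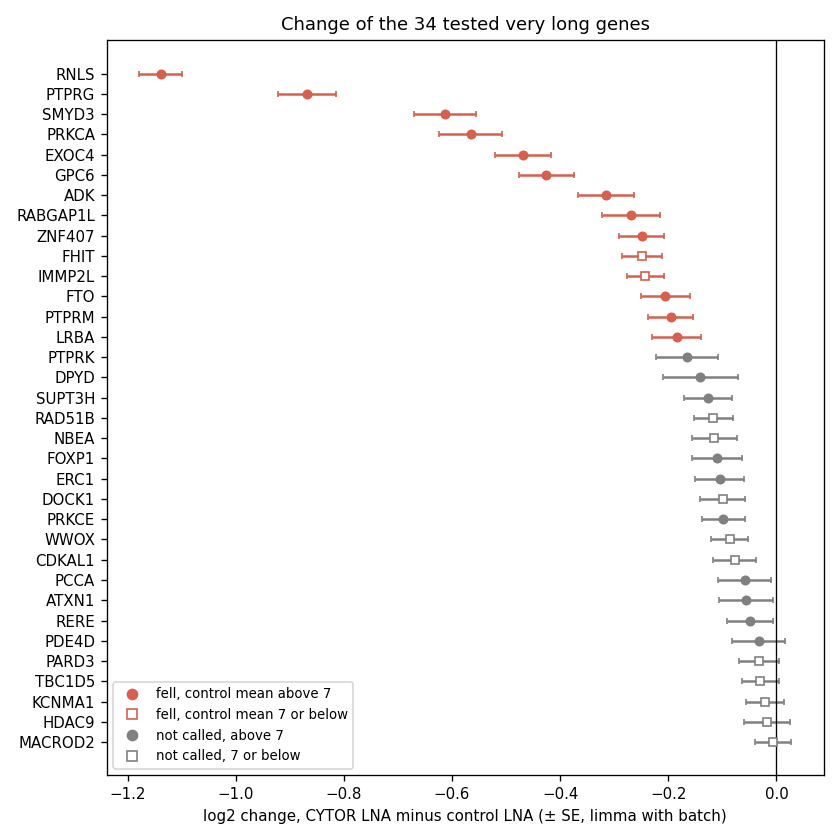
Log2 change (CYTOR LNA minus control LNA) of each of the 34 tested very long genes, with its SE from limma; orange marks the 14 that fell and open squares mark control means of 7 or below. All 34 points lie left of 0, from -1.14 for RNLS to -0.01 for MACROD2.

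RNLS, which encodes renalase, a flavin-dependent oxidase, had the largest fall by brightest probe. Its control arrays ran from 7.95 through a median of 7.96 to 8.01, and its CYTOR LNA arrays from 6.78 through 6.83 to 6.86. The groups lay far apart, and the fitted change of -1.14 on the log2 scale (SE 0.040, adjusted p = 1.91e-16) is 2.20-fold in deposited signal. The silenced arrays lay close to the array median of 6.53, so this fold may be a lower limit. PTPRG, a receptor protein tyrosine phosphatase, spanned 8.60 to 8.84 in controls (median 8.69) and 7.77 to 7.90 after the CYTOR LNA (median 7.82), again with no overlap. It fell 1.83-fold (log2 change -0.87, SE 0.054, adjusted p = 1.71e-11). SMYD3, a lysine methyltransferase, gave 8.69 to 8.93 in controls (median 8.82) and 8.04 to 8.28 in silenced cells (median 8.19). That is a fall of 1.53-fold (log2 change -0.61, SE 0.057, adjusted p = 3.73e-08) with separate groups.

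The start regions of these 3 genes are shown because they are the members whose falls reached 1.5-fold. The sequences are from RefSeq (GRCh38.p14), 250 bases before to 50 bases after the annotated start, 5′ to 3′ on the gene's strand, and capitals mark GGGCGG on either strand, the core of the GC box bound by Sp1-type factors.
RNLS (chr10:88583269-88583568, minus strand): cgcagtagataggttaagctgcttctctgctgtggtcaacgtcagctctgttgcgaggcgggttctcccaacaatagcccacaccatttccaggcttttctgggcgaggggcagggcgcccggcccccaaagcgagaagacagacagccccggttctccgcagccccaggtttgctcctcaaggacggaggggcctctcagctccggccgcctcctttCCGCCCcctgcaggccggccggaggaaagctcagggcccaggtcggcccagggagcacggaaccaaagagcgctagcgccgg
PTPRG (chr3:61561321-61561620, plus strand): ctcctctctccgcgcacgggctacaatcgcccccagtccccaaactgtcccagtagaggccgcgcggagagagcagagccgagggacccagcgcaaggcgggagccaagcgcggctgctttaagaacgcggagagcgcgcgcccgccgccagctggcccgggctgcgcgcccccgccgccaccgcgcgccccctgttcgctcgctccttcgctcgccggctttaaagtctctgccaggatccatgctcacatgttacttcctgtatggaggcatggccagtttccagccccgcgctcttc
SMYD3 (chr1:246507230-246507529, minus strand): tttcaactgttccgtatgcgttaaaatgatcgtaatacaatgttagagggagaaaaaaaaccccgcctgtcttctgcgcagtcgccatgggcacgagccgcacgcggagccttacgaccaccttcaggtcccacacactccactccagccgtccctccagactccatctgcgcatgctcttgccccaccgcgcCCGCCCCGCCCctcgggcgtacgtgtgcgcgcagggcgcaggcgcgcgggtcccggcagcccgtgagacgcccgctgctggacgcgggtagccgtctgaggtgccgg
The RNLS window holds 1 GGGCGG match, the SMYD3 window 2 that overlap by a base, and the PTPRG window 0. Promoter sequences were matched for 41 of the 44 members. GGGCGG on either strand was found in 24 of these 41 (58.5%) and in 44.6% of 27305 promoters of the same length, TATAAA in 2 (4.88%, beside 3264 of the 27305) and TGANTCA, the AP-1 core, in 3 (7.32% against 7.76%). Members held a median of 28 CG dinucleotides per window, against 14 over all promoters. These are descriptions of letters in a window, and their part in the falls was not tested.

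The members are described below by role, in small groups whose differences were not tested. Their counts include members at or below 7. Beside them, 41.2% of tested members, 5.4% of all genes tested and 23.6% of 208 other tested genes of 400 kb or more fell. With a control mean above 7, 54.5% of members and 54.2% of the other long genes fell. Of the 3 receptor phosphatases, which carry extracellular domains and intracellular phosphatase domains, PTPRG and PTPRM fell. PTPRM, a homophilic adhesion receptor, ran from 7.33 to 7.46 in controls (median 7.37) and from 7.15 to 7.26 after silencing (median 7.19). Its groups did not overlap, and its change was -0.20 (SE 0.041, adjusted p = 0.00317). PTPRK overlapped, with 8.32 to 8.54 in controls (median 8.46) and 8.18 to 8.41 after the CYTOR LNA (median 8.22), and did not pass (-0.17, SE 0.057, adjusted p = 0.0918). Its difference was -0.23 within batch 2 (limma adjusted p = 0.0144) and -0.01 within batch 1, which rests on 1 CYTOR LNA array. Without that array, CYTOR LNA replicate 2, PTPRK passed.

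Among the signalling enzymes, 1 of 3 tested fell. PRKCA, the classical protein kinase C alpha, gave 8.88 to 9.13 in controls (median 9.01) and 8.39 to 8.60 in silenced cells (median 8.42), with no overlap. It fell 1.48-fold (-0.57, SE 0.059, adjusted p = 2.20e-07). Its relative PRKCE, another protein kinase C, had group means of 7.004 and 6.910 and did not pass (-0.10, SE 0.040, adjusted p = 0.167). PDE4D, a cyclic AMP phosphodiesterase with a span of 1553.1 kb, did not pass either (-0.03, SE 0.049, adjusted p = 0.789), and its groups overlapped widely, 7.06 to 7.24 and 7.02 to 7.32. PRKG1, the cyclic GMP-dependent kinase, was under the filter at 6.51 in controls.

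Metabolic and small-molecule enzymes contributed 4 falls among 8 tested, RNLS included. ADK, adenosine kinase, the brightest member, gave 10.05 to 10.21 in controls (median 10.12) and 9.77 to 9.86 after silencing (median 9.83). Its groups were separate, and the change was -0.32 (SE 0.052, adjusted p = 2.03e-04, 1.24-fold). FHIT, a diadenosine polyphosphate hydrolase and tumour suppressor, lay near background, at 6.82 to 6.98 in controls (median 6.86) and 6.55 to 6.69 after the CYTOR LNA (median 6.64). It passed the test with separate groups (-0.25, SE 0.037, adjusted p = 4.95e-05). IMMP2L, a subunit of the mitochondrial inner membrane peptidase, was at 6.87 to 6.98 in controls (median 6.90) and 6.60 to 6.71 in silenced cells (median 6.66), without overlap (-0.24, SE 0.034, adjusted p = 2.73e-05).

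The rest of these enzymes did not pass. DPYD, which degrades pyrimidines, ranged from 7.79 to 8.03 in controls (median 7.88) and from 7.52 to 8.03 after silencing (median 7.69). The overlap came with a difference of 0.17 in batch 1 and -0.27 in batch 2, and a change of -0.14 over both (SE 0.069, adjusted p = 0.273); without CYTOR LNA replicate 2 it passed at -0.27 (limma adjusted p = 0.00901). PCCA, a subunit of propionyl-CoA carboxylase, changed by -0.06 (SE 0.049), WWOX, an oxidoreductase with WW domains, by -0.09 (SE 0.034, adjusted p = 0.154) and MACROD2, a mono-ADP-ribosylhydrolase, by -0.01 (SE 0.033). NAALADL2 was under the filter at 6.45. Of the pair of RNA-modifying enzymes, FTO, an RNA demethylase, gave 7.09 to 7.30 in controls (median 7.13) and 6.85 to 7.02 after silencing (median 6.92), and fell without overlap (-0.21, SE 0.045, adjusted p = 0.00468). CDKAL1, a tRNA methylthiotransferase, did not pass (-0.08, SE 0.040, adjusted p = 0.309).

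In the chromatin, transcription and DNA repair genes 2 of 8 tested fell, SMYD3 and ZNF407. The zinc finger gene ZNF407 ran from 7.15 to 7.25 in controls (median 7.18) and from 6.82 to 7.01 in silenced cells (median 6.98), and its groups were separate (-0.25, SE 0.041, adjusted p = 2.14e-04). SUPT3H, a subunit of the SAGA coactivator, did not pass at its brightest probe (-0.13, SE 0.044, adjusted p = 0.0972). RAD51B, a gene of homologous recombination repair, missed the threshold at -0.12 (SE 0.036, adjusted p = 0.052). The forkhead gene FOXP1 (-0.11), the polyglutamine protein gene ATXN1 (-0.06), the corepressor gene RERE (-0.05) and the deacetylase gene HDAC9 (-0.02) did not pass, and AUTS2 was under the filter at 6.51.

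Membrane trafficking genes fell in 3 of 6 tested. EXOC4, a subunit of the exocyst that tethers secretory vesicles, gave 7.64 to 7.77 in controls (median 7.69) and 7.09 to 7.37 after the CYTOR LNA (median 7.23). The groups did not overlap, and it fell 1.38-fold (-0.47, SE 0.052, adjusted p = 5.93e-07). RABGAP1L, which carries a RAB GTPase-activating domain, ranged over 7.20 to 7.44 in controls (median 7.31) and 6.92 to 7.17 in silenced cells (median 7.04). Its groups were separate by a narrow margin (-0.27, SE 0.053, adjusted p = 0.00184). LRBA, a BEACH-domain protein needed for CTLA4 recycling, was the called member whose groups overlapped, at 7.13 to 7.38 in controls (median 7.25) and 6.998 to 7.14 after silencing (median 7.05). Its fall of 0.18 (SE 0.045, adjusted p = 0.0125) was lost without control replicate 3 (adjusted p = 0.0752). NBEA, a relative of LRBA (-0.11), ERC1 (-0.10) and TBC1D5, a retromer-associated RAB7 regulator (-0.03), did not pass. VPS13B, DNM3 and BCAS3 were under the filter.

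GPC6, a glypican of the cell surface, was the member that fell of the 4 surface, polarity and scaffold genes tested. Its controls ran from 7.35 to 7.60 (median 7.50) and its CYTOR LNA arrays from 6.96 to 7.20 (median 7.07), with no overlap and a 1.34-fold fall (-0.43, SE 0.050, adjusted p = 1.90e-06). The guanine nucleotide exchange factor gene DOCK1 (-0.10, adjusted p = 0.189), the polarity gene PARD3 (-0.03) and the potassium channel gene KCNMA1 (-0.02) did not pass, and DLG2 and DOCK4 were under the filter. The 8 members under the filter lay between 6.41 and 6.51 in controls and differed by -0.06 to 0.04, so no change was detectable there. The 10 members above 7 that did not pass include 5 with a lower level at an unadjusted p under 0.05. The share of all genes at that threshold was not counted, so these 5 are not read as further falls.

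**Figure D2:**
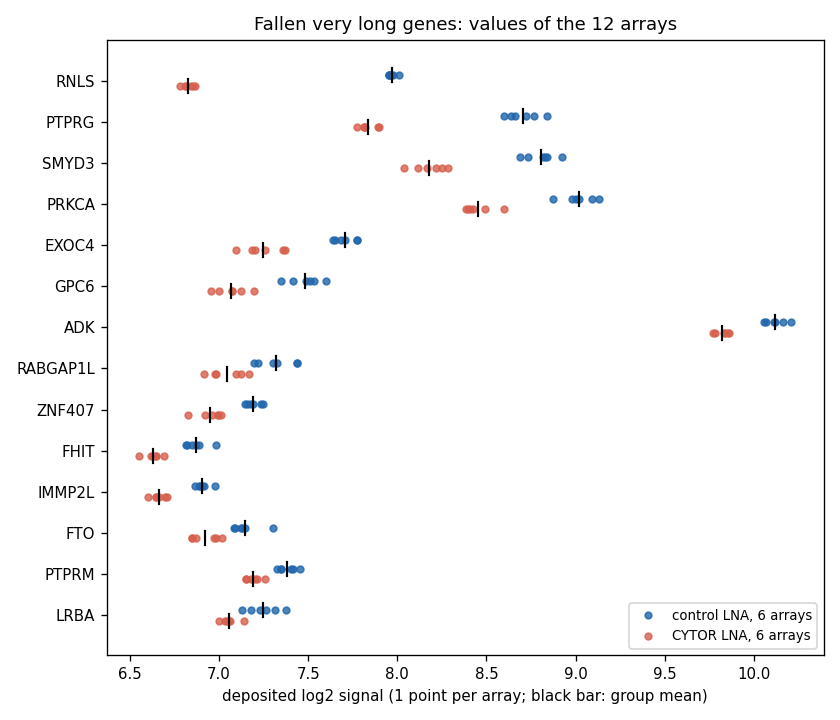
Deposited log2 signal of the 14 fallen very long genes on each of the 12 arrays (blue: control LNA; orange: CYTOR LNA; black bars: group means). In 13 of the 14 genes every CYTOR LNA array lies below every control array; LRBA is the exception.

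The groups did not overlap for 13 of the 34 members (38.2%), in each case with the CYTOR LNA lower, against 4.83% of all genes tested. All 14 called falls had the same sign in both batches. In batch 1 and batch 2, RNLS differed by -1.17 and -1.13, PTPRG by -0.91 and -0.85, SMYD3 by -0.74 and -0.56, and PRKCA by -0.62 and -0.54. EXOC4 differed by -0.64 in batch 1 and -0.40 in batch 2, and FHIT by -0.14 and -0.29. Within batch 2 alone 16 of 34 members fell (47.1%), as did 4.74% of all genes, including the same 14 and also PTPRK and DPYD. Batch 1, whose single silenced array was taken to have the spread of the others, called 9 (26.5%), as well as 6.65% of all genes. Of these 9, 8 were among the 14; ADK, FHIT, FTO, LRBA, PTPRM and RABGAP1L were not called there, with differences of -0.32, -0.14, -0.20, -0.21, -0.23 and -0.23.

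Array by array, the shift was shared by the silenced samples. Over the 22 members above 7, the median deviation from the control mean ran from -0.27 to -0.19 on the 6 CYTOR LNA arrays and from -0.03 to 0.04 on the 6 controls. Over all genes above 7 the same median lay between -0.03 and 0.01 on every array. No CYTOR LNA array came near the controls in this measure. Over the 12 dimmer members it ran from -0.12 to -0.04 and from -0.02 to 0.03.

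Probes of the same gene did not always move together. Of 15 members with several tested probes, 9 (60%) had at least 1 probe that fell, as had 7.8% of all genes with several tested probes, and in none of the 15 did every tested probe pass. RNLS fell at 2 of 3 tested probes, with log2 changes of -1.14 and -0.74 (SE 0.038 and adjusted p = 3.65e-13 for the latter), while its dimmest tested probe gave -0.03 at a control mean of 6.65. ADK fell at a second probe (-0.18, adjusted p = 0.0337) and gave -0.12 and 0.04 at the others. EXOC4 gave -0.07 at its second probe, GPC6 -0.11, LRBA -0.09 and ZNF407 -0.01. In SUPT3H (-0.22, adjusted p = 2.32e-04), RAD51B (-0.16, adjusted p = 0.00208) and ATXN1 (-0.16, adjusted p = 0.00537) a dimmer probe fell though the brightest did not, so that 17 of the 34 members (50%) had at least 1 fallen probe, as had 5.72% of all genes tested. When tested probes were averaged per gene, 17 members fell (50%), as did 6.07% of all genes. The change then shrank to -0.64 for RNLS, smaller than the -0.87 of PTPRG. It shrank to -0.27 for EXOC4, -0.27 for GPC6, -0.14 for ADK and -0.13 for ZNF407, and all, RNLS included, were still called. No tested member probe rose, and the highest change was 0.10 at an ERC1 probe (adjusted p = 0.18).

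**Figure D3:**
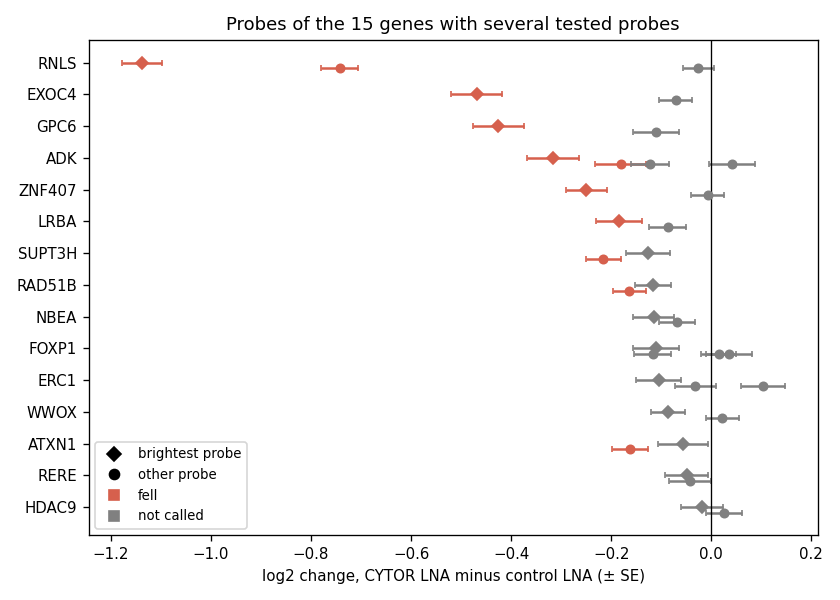
Log2 change with SE of every tested probe of the 15 members with several tested probes (diamonds: brightest probe; circles: other probes; orange: fell). RNLS shows the widest spread, from -1.14 to -0.03.

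Falls were not limited to the listed genes. Outside the list, 208 tested genes span 400 kb or more; 49 of them fell (23.6%, beside 41.2% of the members) and 2 rose (0.962%). With a control mean above 7, 39 of 72 fell (54.2%) and 0 rose, beside 12 of 22 members (54.5%), and the median changes were -0.16 and -0.19. At or below 7, 10 of 136 fell (7.35%) and 2 rose (1.47%), beside 2 of 12 members (16.7%). The differences between members and the other long genes were not tested, and 136 of the 208 others but 12 of the 34 members lay at or below 7. The 6 largest falls outside the list were IL1RAPL1 (-1.15, SE 0.055), the formin gene DIAPH2 (-0.90), NAV2 (-0.66), the adhesion receptor gene ADGRL2 (-0.60), GPHN, the gephyrin gene (-0.55), and the LIM protein gene LPP (-0.54). ANXA8 is an annexin with near-identical copies, so that its assignment, and with it the listed span of 523.8 kb, is uncertain. It rose by 0.27 (SE 0.040, limma adjusted p = 6.42e-05) and MCTP1 rose by 0.16 (limma adjusted p = 0.015). Both lay below 7 in controls (6.936 and 6.913) and above 7 after the CYTOR LNA (7.194 and 7.075). The 0 risen above 7 therefore depends on setting that limit in controls. So does the 54.2% that fell, since some of these genes crossed the limit downwards. Among them were AFF3, from 7.001 in controls to 6.675 after the CYTOR LNA, and ZBTB20, from 7.009 to 6.764.

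**Figure D4:**
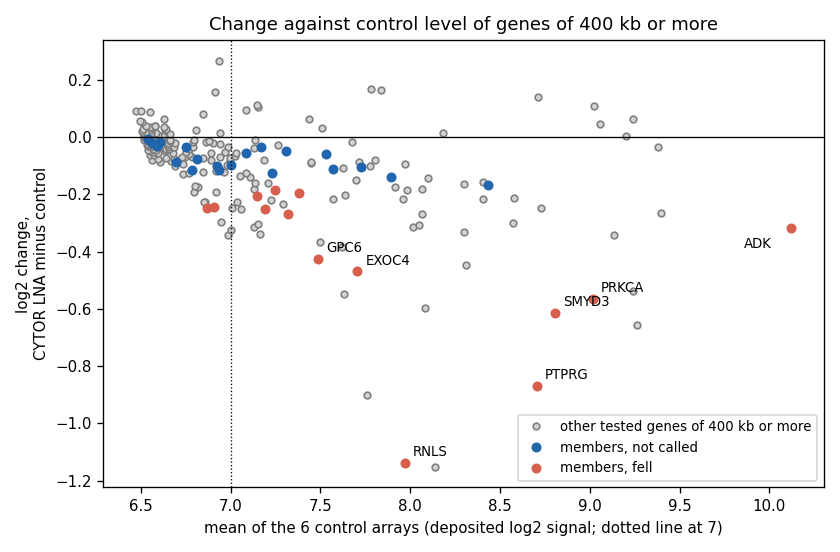
Log2 change against the mean of the 6 control arrays for members (orange: fell; blue: not called) and for the 208 other tested genes of 400 kb or more (grey). Apart from ADK, at a control mean of 10.12, members lie in the range of the other long genes, and the members that fell 1.5-fold or more have control means above 7.

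The share of genes that fell was larger at longer genomic spans. Among genes with a control mean above 7 and with members left out, 3.95% of 1797 genes under 10 kb fell, 3.22% of 2295 at 10 to 30 kb, 7.89% of 2523 at 30 to 100 kb, 15.3% of 802 at 100 to 200 kb, 29.8% of 326 at 200 to 400 kb and 54.2% of 72 at 400 kb or more. The share that rose was 3.01%, 3.27%, 4.04%, 2.62%, 1.53% and 0 in the same order. ANXA8 and MCTP1, which rose, had control means below 7 and are not counted here. AFF3 and ZBTB20, which fell to below 7, had control means above it and are counted. The median control level also declined with span, from 8.65 under 10 kb to 7.71 at 400 kb or more, and its part in the result was not tested. Within the 22 members above 7, log2 change and log10 span were hardly related (Spearman's rho -0.13, Pearson's r 0.04), whereas brighter members changed more (rho -0.60, r -0.47 between change and control mean). These correlations are across genes measured on the same arrays and are given as descriptions.

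**Figure D5:**
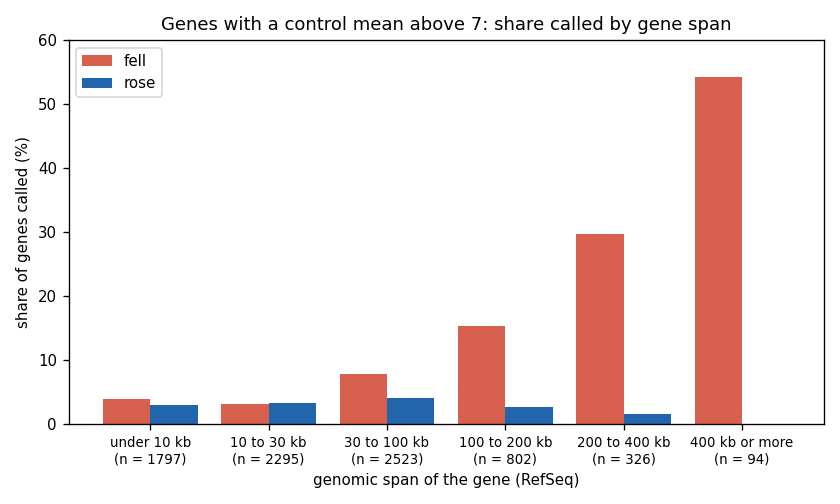
Share of genes with a control mean above 7 that fell (orange) or rose (blue) after the CYTOR LNA, by genomic span, members included. The share that fell is 3.95% under 10 kb and 54.3% of the 94 genes of 400 kb or more, of which 0 rose.

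Genes with related functions, most of them shorter, were examined beside the members and were likewise chosen with earlier results of these data known. A list of partners, complex subunits and paralogues of the members held 66 tested genes with a median span of 45.0 kb; 4 fell and 4 rose (6.06% each, where 5.4% of all genes tested fell and 2.49% rose), and the median change was 0.01. Of 55 under 200 kb, 2 fell (3.64%) and 4 rose (7.27%), and of 11 longer ones 2 fell (18.2%) and 0 rose. Within the exocyst, EXOC2 (208 kb) fell by 0.20 (SE 0.052, adjusted p = 0.0223), EXOC1 (51.4 kb) rose by 0.17 (SE 0.049, adjusted p = 0.0435), and EXOC3, EXOC5, EXOC6, EXOC7 and EXOC8 gave -0.04 to 0.04 and did not pass, beside -0.47 for EXOC4. PRKCH (363.5 kb), like PRKCA a protein kinase C, fell by 0.27 (adjusted p = 0.00257), PRKCI (83.6 kb) rose by 0.25 (adjusted p = 0.0231), and PRKCD changed by -0.14 (adjusted p = 0.163). PTPRA, a shorter receptor phosphatase of 174.5 kb, rose by 0.23 (adjusted p = 0.007), and TADA1, a SAGA subunit as is SUPT3H, rose by 0.23 (adjusted p = 0.00625). All 4 rises were larger in batch 1, which holds 1 CYTOR LNA array, than in batch 2. EXOC1 differed by 0.34 and 0.10, and PRKCI by 0.58 and 0.12, and the groups of both genes overlapped. PTPRA differed by 0.37 and 0.17, and TADA1 by 0.37 and 0.18, with separate groups.

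METTL3, the catalytic subunit of the RNA N6-adenosine methyltransferase, spans only 13.2 kb and fell by 0.54 (SE 0.057, adjusted p = 3.34e-07), the largest fall on this list. Its partner METTL14 gave 0.00 and the demethylase ALKBH5 -0.06, neither of which passed. The retromer subunit VPS29 fell by 0.17 (adjusted p = 0.0372). SMYD2, related to SMYD3, changed by -0.18 and missed the threshold (adjusted p = 0.056), while SMYD5 (0.04), RABGAP1 (0.02), HINT1 (0.04), HINT2 (-0.05), IMMP1L (0.02) and GPC1 (0.10) did not pass. The differences between members and their partners were not tested. Of 7 tested genes that lie wholly inside a member's span, CSTF2T, inside PRKG1 and 4.1 kb long, fell (-0.20, SE 0.046, adjusted p = 0.00691) and the other 6 did not pass; none of the 7 lies inside a member that fell.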

How the data were processed

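MDA-MB-231 total RNA was profiled on 12 single-colour Illumina bead arrays. The authors deposited log2 values, 1 column per array, processed with the lumi package per the submitters' processing notes; for its version, transformation and normalization nothing is given in the sources used here, and if the transformation compresses low values, folds of dim probes are understated. Of 48107 rows, 784 without values were left out. No detection p-values were used, so probes above background could not be told by them. The number of arrays, 6 per group, limits precision.

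Probes were named through the platform annotation, with symbols updated by gene ID to RefSeq (GRCh38.p14), which also gave genomic spans, for 12702 of 12714 tested genes. The files name no genome build, so the only coordinates printed are those of RefSeq promoter windows. Probes whose mean reached the median over all probes (6.52) were tested, 23662 in all. limma 3.58.1 (R 4.3.3; lmFit, eBayes with an intensity trend) was fitted with group and batch as terms, leaving 9 residual degrees of freedom, with p-values adjusted by Benjamini-Hochberg across every tested probe and a threshold of 0.05, and was tested on simulated data. The simulated data held independent noise and no batch effect, so they do not check the fit for batch or for shared variation. Batch is as labelled and unbalanced over groups.

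The members, the role groups and the partner list were chosen with earlier results of these data known. All members are named, with the brightest CYTOR probe, the largest called changes among other genes of 400 kb or more (6 falls, up to 3 rises), and called partners or partners of fallen members; markers and nested genes were named in addition. Alternatives changed, in turn, the filter, normalization, variance model, probe rule, threshold, span limit, batch term, replicate block and the arrays used.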

Additional observations from a re-analysis of the deposited data

Results flagged for a closer look

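Of 68 groups of 6 arrays examined over the 34 tested members, 3 held a sample whose gap to its nearest neighbour was large for the group's range by Dixon's test; chance gives about 1 in 20. In FTO, control replicate 6 was high at 7.30, with the next control at 7.15 (ratio 0.715). In PRKCE, control replicate 2 was low at 6.88, with the next at 7.01 (ratio 0.699). In HDAC9, control replicate 3 was high at 6.73, with the next at 6.60 (ratio 0.637). FTO passed the test without control replicate 6 (limma adjusted p = 0.0071), and PRKCE passed without control replicate 2 (limma adjusted p = 0.0319).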

How the results depend on the processing

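The count of 14 fallen members stayed between 13 and 16 when any array was left out, the median change of tested members between -0.14 and -0.11, the fallen other long genes between 42 and 49, and risen members at 0; the risen other long genes were 2 to 3, the fallen partners 2 to 5, and over all genes 570 to 695 fell and 199 to 363 rose. Within batch 1 alone, where 1 CYTOR LNA array stands for its group, 9 members fell with a median change of -0.18, 30 other long genes fell and 680 genes rose, and uncalled members turned positive: DPYD 0.172, HDAC9 0.115, KCNMA1 0.0769, MACROD2 0.0376, PARD3 0.0299, PDE4D 0.0163, RERE 0.0102, TBC1D5 0.020 and WWOX 0.0023. ATXN1 was 0.0138 within batch 2 alone, and HDAC9 0.0038 when probes of a gene were averaged. Leaving out any 1 array gave -0.1016 to 0.0138 for ATXN1, -0.0713 to 0.0214 for HDAC9, -0.0608 to 0.0008 for KCNMA1 and -0.0234 to 0.0112 for MACROD2, none called. RAD51B passed without CYTOR LNA replicate 6 or control replicate 1 (limma adjusted p = 0.0229 and 0.0368), SUPT3H without CYTOR LNA replicate 1 (0.0403). The 199 came without control replicate 2, and the 2 partners without CYTOR LNA replicate 1 or control replicate 3. The cause was not tested. Without the batch term 494 genes rose. Among the brightest 30% of probes the median change was -0.18 over 24 members, since dim members drop out. At an adjusted p below 0.01, 13 members fell (LRBA was lost), 1 other long gene rose, 2 partners fell, and 451 genes fell and 104 rose in all. A limit of 300 kb gave 98 fallen other long genes (25.9%), and 600 kb gave 19 (26.4%) with 0 risen. Replicate numbers are shared between groups, but same-numbered samples deviated from their group means together in no consistent way (r -0.18 to 0.18). After group and batch were fitted, r ran from -0.225 to 0.274, again with mixed signs. The numbers were therefore not taken to pair the samples. With the replicate block 15 members fell, the same 14 and RAD51B, and HDAC9 was 0.0065. The other settings kept all 14 calls (no filter, quantile normalization, no intensity trend). Signal near background limits what can be said of members at or below 7.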
